A study of Rattus norvegicus with 10 samples.

Results

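The 6 genes described here, Hsd11b1, Nr3c1, Fkbp5, Tsc22d3, Sgk1 and Klf9, make, sense and answer to active glucocorticoid. They are 6 of the 10411 genes that have a probe set of their own on the array, and all 9 of their probe sets were examined. Hsd11b1 was picked from these same arrays for its difference between the diets, so its difference is given as a description with no test. The other 5 genes were chosen by their known place in the pathway, with earlier results of these arrays in view. MAS5 signal, the background-corrected brightness of a probe set, was measured in the mammary gland of female SD rats, taken at postnatal day 21. The soy group (5 arrays, numbered 147, 149, 155, 157 and 159) had soy protein isolate as the protein of AIN-93G, a purified feed for rodents, from gestation day 4 until weaning. The casein group (5 arrays, numbered 6, 7, 10, 18 and 20) had the same type of diet with casein over the same period. No other treatment or allele is named, and the labels do not say whether each array is a separate animal, since they mention RNA pools with replicate targets, so every p-value rests on the spread among these arrays, which may be technical.

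Glucocorticoids act on a cell through the steroid that reaches it in the blood and the steroid it makes on the spot. Hsd11b1 encodes the reductase of the endoplasmic reticulum that turns the inert keto steroid back into active hormone (corticosterone in the rat), and it is well known from adipose tissue and liver. The active hormone binds the glucocorticoid receptor, encoded by Nr3c1, which is held by HSP90 with co-chaperones such as FKBP5 until hormone binding. The receptor then enters the nucleus and induces genes that include Fkbp5 itself, Tsc22d3, Sgk1 and Klf9. On GRCr8 the genes span chr13:107277526-107327462 (Hsd11b1), chr18:31522783-31644508 (Nr3c1), chr20:6458931-6577227 (Fkbp5), chrX:109006410-109066389 (Tsc22d3), chr1:24799391-24916886 (Sgk1) and chr1:230126646-230151641 (Klf9). In the mammary gland glucocorticoids are known for their part, with prolactin and insulin, in secretory differentiation.

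The regions before the annotated starts are given for Fkbp5 and Klf9, the 2 genes with the largest differences after Hsd11b1, whose own start region is not used here. Capitals mark the GC box GGGCGG or its reverse complement CCGCCC, the kind of site that the KLF9 protein binds. Both are the 250 bases before a start, from RefSeq on GRCr8, read 5' to 3' on the strand of the gene, at chr20:6543556-6543805 (minus strand, inside the annotated span of Fkbp5) and chr1:230126396-230126645 (plus strand, just before Klf9).
Fkbp5: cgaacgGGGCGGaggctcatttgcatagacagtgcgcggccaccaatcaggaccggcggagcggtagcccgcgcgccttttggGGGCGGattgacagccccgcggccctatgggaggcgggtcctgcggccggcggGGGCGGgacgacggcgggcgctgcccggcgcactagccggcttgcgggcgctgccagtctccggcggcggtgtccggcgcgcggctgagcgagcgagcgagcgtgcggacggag
Klf9: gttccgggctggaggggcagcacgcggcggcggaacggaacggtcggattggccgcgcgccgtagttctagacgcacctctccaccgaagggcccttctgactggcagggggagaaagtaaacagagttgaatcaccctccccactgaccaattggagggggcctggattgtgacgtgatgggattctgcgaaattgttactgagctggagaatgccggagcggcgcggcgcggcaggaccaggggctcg
The Fkbp5 region held 3 GC boxes and the Klf9 region 0, while 30.5% of the 33469 start regions of the same length held at least 1. The half-site TGTTCT of the glucocorticoid receptor, or AGAACA on the other strand, was in 0 of the 10 start regions listed for 5 of the genes and in 17.5% of all. A match or its absence in these letters describes the region alone.

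The whole gland holds fat, epithelium, vessels, lymph node and, in some dissections, muscle, and in such samples fewer cells of a type and less RNA per cell cannot be told apart. Markers fixed for 8 cell types were all above 0. Skeletal muscle markers (28 of 29 on the array, 18 past the filter on dim probe sets) had a summed signal of 4683 to 203850 in soy arrays and 5449 to 202217 in casein arrays. Their signal was high in soy 147, soy 149, soy 157 and casein 6. Lymph node markers (18 of 26 on the array) summed to 4046 to 31434 in soy arrays and 5421 to 26338 in casein arrays, and were low in soy 149 and casein 6. Adipocyte markers (17 of 20 on the array) summed to 61863 to 112628 in soy arrays and 68577 to 93973 in casein arrays, with soy 149 highest. The beta-actin 3' to 5' log2 ratio, a measure of RNA quality, was 0.50 to 0.65 in soy arrays and 0.29 to 0.63 in casein arrays. The part of these differences in the results was not tested beyond the covariates and left-out arrays given below.

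Hsd11b1 signal was higher in every soy array than in any casein array. On the log2 scale it was 10.00, 10.75, 10.44, 9.79 and 10.06 in soy 147, 149, 155, 157 and 159. In casein 6, 7, 10, 18 and 20 it was 9.29, 9.69, 9.66, 9.09 and 9.24. The lowest soy array, soy 157, lay just above the highest casein array, casein 7, so the groups met without overlapping. As linear signal the gene averaged 1217 ± 337 in soy and 682 ± 127 in casein (SD, n = 5 each). The log2 difference was 0.81 ± 0.19 (SE), a 1.76-fold higher geometric mean in soy, with a 95% interval of 0.40 to 1.22. Probe sets whose groups did not overlap made up 0.798% of the 9520 tested, and 0.441% had soy on top. Since Hsd11b1 was picked from this contrast, nothing is read from its place among them. The interval makes no allowance for that choice and is not a test.

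The Hsd11b1 difference kept its sign in all 26 alternative settings, where it ran from 0.65 to 0.97. Since its groups do not overlap, leaving out arrays or weighting them could not turn the sign. Changes of filter or variance model leave the estimate as it was. The kept sign is therefore a description and no support for the difference. It was 0.81 with the adipocyte marker signal as a covariate, 0.83 with the muscle signal and 0.81 with the lymph node or the luminal signal. With muscle and lymph node covariates together it was 0.96, and with the actin ratio 0.97. The lowest value, 0.65, came without casein 6 and soy 149, both poor in lymph node signal, and soy 149 was also the array with the highest Hsd11b1. Without the 4 arrays of highest muscle signal it was 0.83.

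**Figure D1:**
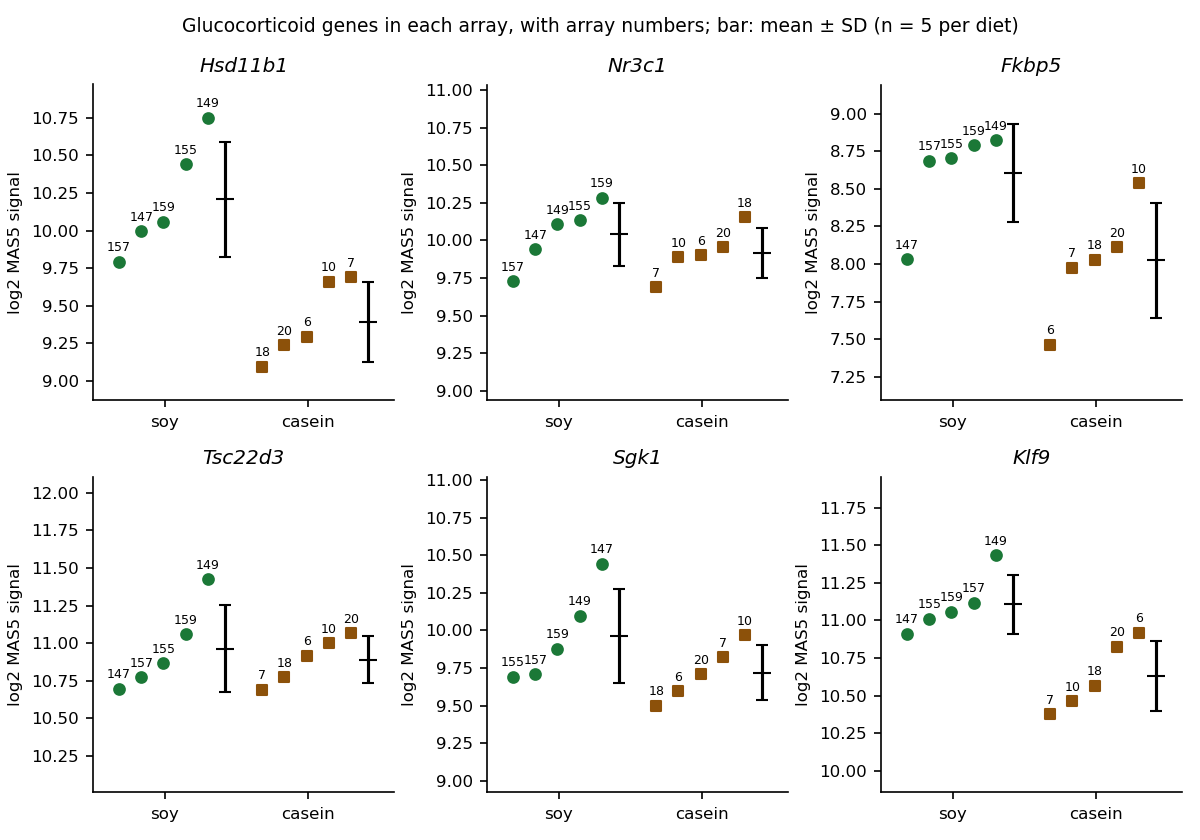
Log2 MAS5 signal (vertical axes, each spanning the same range) of the brightest probe set of each of the 6 genes in soy arrays (circles) and casein arrays (squares), with the array number at each point and the mean ± SD (n = 5) as a bar. The diets part fully for Hsd11b1, with 9.79 the lowest soy value and 9.69 the highest casein value, and overlap for the other 5 genes, by a single casein array for Klf9.

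Of 15 listed genes of glucocorticoid supply and inactivation, 12 were on the array and 6, Hsd11b1 among them, passed the filter, 5 with a positive and 1 with a negative difference. Of the 5 other than Hsd11b1, 0 had an unadjusted p under 0.05 in limma, against 4.55% of all tested probe sets. With the muscle covariate 1 was lower in soy, where 2.54% of all tested probe sets were lower at that p. With the muscle and lymph node covariates 1 was higher (3.36%) and 1 lower (3.24%). Without the 4 arrays of highest muscle signal 1 was higher (3.88%). Genes of this list below the filter had differences of -1.14 (a probe set of Star, the cholesterol transporter of steroid synthesis) to 0.54 (Cyp21a1, a steroid hydroxylase), with no test. Hsd11b2, which encodes the enzyme that inactivates the hormone, had 8.40 ± 0.18 in soy and 8.39 ± 0.23 in casein on the log2 scale (SD, n = 5 each), a difference of 0.02 ± 0.14 (SE). H6pd, which encodes the enzyme that supplies NADPH to HSD11B1 inside the endoplasmic reticulum, differed by 0.003 ± 0.17 (SE). The adjusted p was 1.0 for both genes in limma. Slc37a4, the transporter that brings glucose 6-phosphate to H6PD, was at -0.25 ± 0.29 (SE), Akr1c14, a hydroxysteroid dehydrogenase, at 0.24 ± 0.26 (SE) and Cyp11a1, the side-chain cleavage enzyme of steroid synthesis, at 0.11 ± 0.13 (SE). In limma the adjusted p of these 3 was 0.99.

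Nr3c1, the receptor gene, differed little between the diets at its bright probe set over all 10 arrays without covariates. On the log2 scale it was 9.94, 10.11, 10.14, 9.73 and 10.28 in soy 147, 149, 155, 157 and 159, and 9.90, 9.69, 9.89, 10.15 and 9.95 in casein 6, 7, 10, 18 and 20. The groups overlapped over most of their range. The difference was 0.12 ± 0.12 (SE), with a 95% interval of -0.14 to 0.39 and an adjusted p of 0.99 in limma. It ran from 0.029 ± 0.13 (SE) with the actin ratio as a covariate to 0.29 ± 0.10 (SE) with covariates for muscle and lymph node. Without the 4 arrays of highest muscle signal it was 0.29 ± 0.14 (SE). Leaving out soy 157 gave 0.20, leaving out soy 159 gave 0.061 and leaving out casein 7 gave 0.065. A second Nr3c1 probe set lay below the filter, at 4.83 to 6.67 in soy and 6.38 to 6.86 in casein, and there the mean was lower in soy, by a difference of -0.70. Nr3c2, the mineralocorticoid receptor gene, also lay below the filter, with 7.36 ± 0.25 in soy and 7.32 ± 0.14 in casein (SD, n = 5 each).

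Fkbp5, the co-chaperone that lowers the hormone affinity of the receptor and is itself induced by it, was higher on average in soy. Its log2 signal was 8.03, 8.82, 8.70, 8.69 and 8.79 in soy 147, 149, 155, 157 and 159. In casein 6, 7, 10, 18 and 20 it was 7.46, 7.98, 8.54, 8.03 and 8.11. The other soy arrays formed a tight cluster, while soy 147 lay among the casein arrays and casein 10 lay close below that cluster. The difference was 0.58 ± 0.21 (SE), or about 1.5-fold, with a 95% interval of 0.13 to 1.03, an unadjusted p of 0.0152 and an adjusted p of 0.98 in limma, and all 5 soy arrays lay above the casein mean. Without casein 6 it was 0.44, without soy 147 it was 0.73, and without both casein 6 and soy 149 it was 0.39. It was 0.73 ± 0.19 (SE) with the muscle covariate and 0.76 ± 0.21 (SE) with the muscle and lymph node covariates. Over 25 alternatives it ran from 0.39 to 0.76.

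Fkbp5 had the largest difference of the receptor and chaperone list, with 0.58 against -0.34 at the other end. Of 15 listed receptors and chaperones, 13 were on the array and 12 passed the filter, 5 with a positive and 7 with a negative difference. Their median was -0.04, against -0.01 over all tested probe sets. Fkbp4, the co-chaperone that FKBP5 gives way to when hormone binds, was at -0.14 ± 0.11 (SE), Stip1, which links HSP70 to HSP90, at -0.14 ± 0.09 (SE) and Hspa4, an HSP70 relative, at -0.34 ± 0.17 (SE). Their adjusted p was 0.98 in limma in each case. Coregulators of the receptor (8 of 13 tested) had 3 positive and 5 negative differences and a median of -0.05. In this list 1 of 8 genes, Hdac2, had an unadjusted p under 0.05, against 4.55% of all tested probe sets. That count was 0 with the muscle covariate, with the muscle and lymph node covariates, without soy 149 and without casein 6 and soy 149. In these settings 2.9% to 3.36% of all tested probe sets were higher and 2.54% to 4.15% lower at that p. The count was 3, all lower in soy, without casein 6, where 3.33% of all tested probe sets were higher and 4.07% lower. Hdac2, a histone deacetylase, was at -0.27 ± 0.10 (SE), Smarca4, the ATPase of the SWI/SNF remodeller, at -0.18 ± 0.12 (SE), the acetyltransferase gene Crebbp at -0.05 ± 0.12 (SE) and the corepressor gene Ncor1 at 0.03 ± 0.09 (SE), with adjusted p of 0.98 to 1.0 in limma.

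Klf9, a zinc finger transcription factor induced by glucocorticoid and by thyroid hormone, had the largest difference relative to its error among the 5 genes that were not picked from this contrast. On the log2 scale it was 10.91, 11.43, 11.01, 11.12 and 11.06 in soy 147, 149, 155, 157 and 159. In casein 6, 7, 10, 18 and 20 it was 10.92, 10.38, 10.46, 10.56 and 10.82. A single casein array, casein 6, reached the lowest soy array, soy 147, and the other 4 lay below all soy arrays. The difference was 0.48 ± 0.13 (SE), or 1.39-fold, with a 95% interval of 0.19 to 0.76, an unadjusted p of 0.00364 and an adjusted p of 0.98 in limma. It ran from 0.40 to 0.55 over all 26 alternatives, with adjusted p from 0.51 to 1.0. Both other Klf9 probe sets lay below the filter, at 4.07 to 6.76 and 5.74 to 7.08 in soy and at 4.56 to 6.76 and 6.16 to 6.51 in casein, with differences of -0.10 and 0.25.

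Klf9 and Fkbp5 were thus the 2 of the 5 genes not picked from the contrast that had an unadjusted p under 0.05, and both were higher in soy. Of all tested probe sets 4.55% met that rule, with 2.31% higher and 2.24% lower in soy. Neither passed after adjustment, and 0 of the 9520 tested probe sets (0%) had an adjusted p under 0.05 in limma. With the genes chosen in view of earlier results, this count is a description of these arrays.

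**Figure D2:**
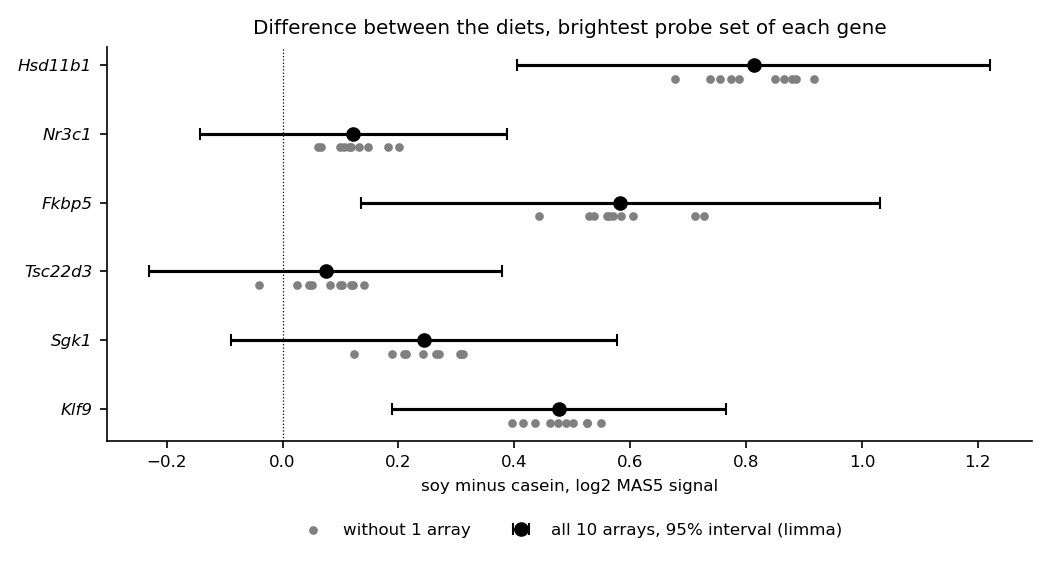
Difference between the diets (soy minus casein, log2 MAS5 signal, horizontal axis) for the brightest probe set of each gene, with black points and bars for all 10 arrays and the 95% interval from limma, and grey points for the 10 values without 1 array. The grey values stay above 0 for Hsd11b1 (0.68 to 0.92), Fkbp5 (0.44 to 0.73) and Klf9 (0.40 to 0.55). They also do for Nr3c1 (0.061 to 0.20) and Sgk1 (0.12 to 0.31), while those of Tsc22d3 cross 0. The Hsd11b1 interval makes no allowance for its choice from this contrast and is not a test. Its grey values could not cross 0, since its groups do not overlap.

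Tsc22d3, which encodes GILZ, an anti-inflammatory leucine zipper protein induced by glucocorticoid, overlapped between the diets. On the log2 scale it was 10.70, 11.42, 10.87, 10.77 and 11.06 in soy 147, 149, 155, 157 and 159, and 10.92, 10.69, 11.00, 10.77 and 11.07 in casein 6, 7, 10, 18 and 20. Apart from soy 149, which was the highest, both diets covered the same range. The difference was 0.07 ± 0.14 (SE), with a 95% interval of -0.23 to 0.38 and an adjusted p of 1.0 in limma. It turned to -0.041 without soy 149 and to -0.034 without casein 6 and soy 149, and was 0.20 ± 0.12 (SE) with the muscle and lymph node covariates. Without soy 147 it was 0.14, without soy 157 and casein 20 in turn 0.12 each, and without casein 7 and casein 18 in turn 0.024 and 0.045.

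Sgk1, the serum- and glucocorticoid-regulated kinase, which controls sodium channels and other transporters, had its highest value in a soy array. On the log2 scale it was 10.44, 10.10, 9.69, 9.71 and 9.88 in soy 147, 149, 155, 157 and 159, and 9.60, 9.82, 9.97, 9.50 and 9.71 in casein 6, 7, 10, 18 and 20. Soy 147 and soy 149 lay above all casein arrays, and the other 3 soy arrays lay within the casein range. The difference was 0.24 ± 0.15 (SE), with a 95% interval of -0.09 to 0.58 and an adjusted p of 0.98 in limma. Without soy 147 it was 0.12, and without the 4 arrays of highest muscle signal, which include soy 147 and soy 149, it was 0.034. With the actin ratio as a covariate it was 0.39 ± 0.16 (SE).

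The spread among arrays of the same diet differed between the genes. The SD within a diet was 0.36 on the log2 scale for Fkbp5, larger than that of 83.3% of the tested probe sets, and 0.33 for Hsd11b1, larger than that of 79.4%. It was 0.26 for Sgk1, 0.23 for Tsc22d3, 0.22 for Klf9 and 0.19 for Nr3c1, around the median of 0.23 over all tested probe sets.

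The members were then compared with each other from array to array. Of the 15 pairs, 14 had a positive and 1 a negative Pearson coefficient over the 10 arrays. Without Hsd11b1, 9 of the 10 pairs were positive. The pairs share genes and arrays, so they are not independent of each other. The share of positive coefficients among pairs of other genes was not computed, so these counts are a description with no reference. Pooled values of Hsd11b1 carry the diet difference for which it was picked, so its pooled coefficients are given with no test. Hsd11b1 and Fkbp5 had r = 0.71 and rho = 0.75. Without soy 149 and soy 155, the arrays farthest from the Hsd11b1 median, r was 0.58, and with each diet set to its own mean it was 0.39 (exact permutation within diets, p = 0.30, adjusted over the 15 pairs 0.89). Hsd11b1 and Klf9 had r = 0.66 and rho = 0.67, but r = 0.35 without those 2 arrays and 0.07 within diets (exact permutation p = 0.85, adjusted 0.91). Hsd11b1 and Tsc22d3 had r = 0.44 and rho = 0.20, and r = -0.097 without soy 149.

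Of the 10 pairs without Hsd11b1, 0 had an unadjusted permutation p under 0.05 for r and 1 had it for rho, and 0 passed with adjustment over the 15 pairs. That adjustment takes in the pooled Hsd11b1 pairs, which carry the diet difference it was picked for. The adjusted p-values of the pooled coefficients below may therefore be too low. That 1 pair was Fkbp5 and Klf9, with rho = 0.70 (permutation p = 0.030, adjusted 0.20), r = 0.48 (permutation p = 0.15, adjusted 0.38) and r = -0.086 within diets. Tsc22d3 and Klf9 had r = 0.58 (permutation p = 0.079, adjusted 0.38) and rho = 0.47 (permutation p = 0.18, adjusted 0.44). Within diets their r was 0.71 (exact permutation p = 0.028, adjusted 0.43), and the pooled r was 0.20 without soy 149 and -0.11 without soy 149 and casein 7. Nr3c1 had r of 0.45 with Tsc22d3, 0.38 with Klf9, 0.37 with Fkbp5 and -0.02 with Sgk1, with permutation p of 0.19 to 0.95 and adjusted p of 0.38 to 0.95. With Tsc22d3 it was 0.43 within diets.

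**Figure D3:**
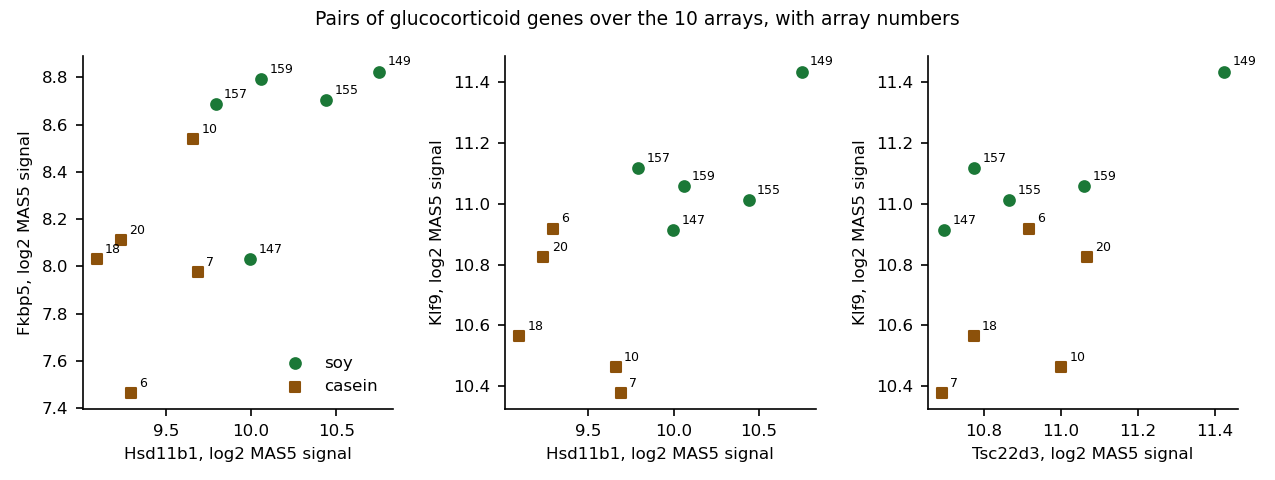
Log2 MAS5 signal of 3 pairs of genes over the 10 arrays, with Hsd11b1 against Fkbp5 and Klf9 and Tsc22d3 against Klf9 (soy, circles; casein, squares; array numbers at the points). Soy 149 sits at the upper right in each panel, and r between Hsd11b1 and Klf9 is 0.66 over all arrays and 0.07 within diets.

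A wider list of genes known to be induced by glucocorticoid leaned to higher values in soy, and the lean was small without soy 149. The list was drawn up with earlier results of these arrays known, so the lean is a description with no test. Of 54 listed genes 49 were on the array and 40 passed the filter, 29 with a positive and 11 with a negative difference. Without the members, 25 were positive and 11 negative with a median of 0.11, while 47.3% of all tested probe sets were positive and their median was -0.01. Without soy 149 the counts were 22 and 14 and the median was 0.03, and without casein 6 and soy 149 they were 18 and 18 with a median of 0.01. Without casein 6 alone the median was 0.07, and with array weights it was 0.05. It was larger in other settings, at 0.20 with the muscle and lymph node covariates, 0.17 with the muscle covariate and 0.15 without soy 157. In this list 4 genes were higher and 1 lower at an unadjusted p under 0.05, against 2.31% and 2.24% of all tested probe sets, and 0 passed after adjustment in limma. The higher count was 2 without soy 149, under quantile normalization, under median centring and with the filter at the 60th percentile. In these settings 2.9%, 2.2%, 1.72% and 2% of all tested probe sets were higher at that p. It was 1 without casein 6 and soy 149 (3.06% of all tested probe sets) and 11 with the muscle and lymph node covariates (3.36%). The lower count was 0 without soy 155, soy 157, soy 159, casein 18 or casein 20 in turn (1.45% to 2.42% of all tested probe sets). It reached 4 without the 4 arrays of highest muscle signal, where 4.93% of all tested probe sets were lower.

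The 4 higher ones were Klf9, Fkbp5 (also in the chaperone list), Tsc22d1 and Pdk4, and the lower was Cebpb. Tsc22d1, a relative of Tsc22d3, had 12.29 to 12.57 in soy and 12.11 to 12.26 in casein, groups that did not overlap, with a difference of 0.20 ± 0.08 (SE). It was 1 of the 40 tested genes of the list with soy wholly on top, against 0.441% of all tested probe sets. Nothing is read from that single gene. Pdk4, the kinase that closes pyruvate dehydrogenase, differed by 0.44 ± 0.19 (SE) and Cebpb, a transcription factor of adipocyte and mammary development, by -0.33 ± 0.14 (SE). Tsc22d1, Pdk4 and Cebpb all had an adjusted p of 0.98 in limma. Mt2A, a metallothionein, had a difference of 0.64 ± 0.32 (SE), Errfi1, a feedback inhibitor of the EGF receptor, of 0.39 ± 0.21 (SE) and Nfkbia, the inhibitor of NF-kappaB, of 0.32 ± 0.23 (SE). Casein 6 was the lowest array of each of these 3 genes. Other classical targets had differences of 0.11 ± 0.17 (SE) for the clock gene Per1, 0.01 ± 0.29 (SE) for Ddit4, an inhibitor of mTOR signalling, and 0.03 ± 0.12 (SE) for Glul, glutamine synthetase. Dusp1, a MAP kinase phosphatase, was at -0.27 ± 0.24 (SE) and -0.27 ± 0.23 (SE) at its 2 probe sets, and Cebpd at -0.11 ± 0.15 (SE) at the brightest probe set and 0.39 ± 0.21 (SE) at another. Mt1 lay below the filter.

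**Figure D4:**
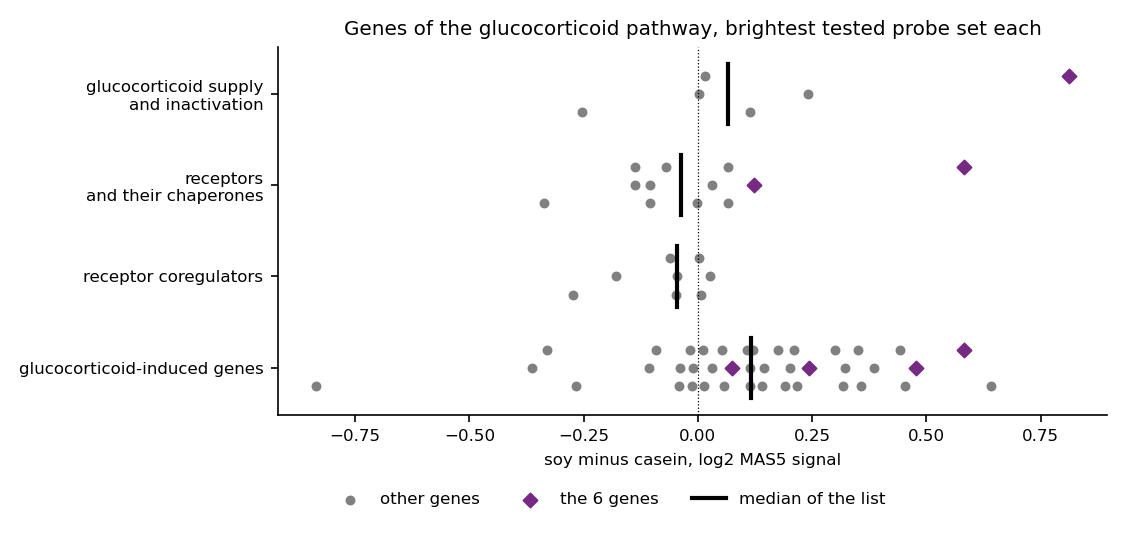
Difference between the diets (soy minus casein, log2 MAS5 signal, horizontal axis) for the tested genes of 4 lists, the brightest probe set of each gene, with purple diamonds for the 6 genes described here, grey points for the others and a black line at the median of each list. The median of the induced genes is 0.12 with the members, and those of the chaperone and coregulator lists are -0.04 and -0.05. Hsd11b1 lies far from the other supply genes, as its choice for this difference implies.

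The genes whose signal followed Hsd11b1 most closely were sought among 8148 tested probe sets of other named genes. The highest Pearson coefficients over the 10 arrays were those of Gabarapl1 (0.92), an autophagy protein gene, Tns3 (0.92), a focal adhesion gene, Hrct1 (0.90), Pdp1 (0.89), the phosphatase that reopens pyruvate dehydrogenase, the chemokine gene Cxcl14 (0.88) and Eif4ebp2 (0.88), a repressor of translation initiation. With each diet set to its own mean they were 0.79, 0.87, 0.94, 0.73, 0.71 and 0.80 in the same order. None of the other 5 glucocorticoid genes was among them. For Klf9 the closest were Slc14a2 (0.95), Cox6c (0.93) and Slc3a1 (0.90), for Fkbp5 Taf6 (0.95), Smim24 (0.94) and Gpx1 (0.92), and for Tsc22d3 Cavin3 (0.94), Rgs3 (0.91) and Abcd2 (0.91). Those closest to Sgk1 were Serpina1 (0.88), Slc40a1 (0.88) and Lats1 (0.88), and those closest to Nr3c1 were Sec22b (0.91), Snx3 (0.88) and Marchf2 (0.87). These are the highest of 8148 coefficients over arrays that share their tissue makeup, so they carry no p.

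**Figure D5:**
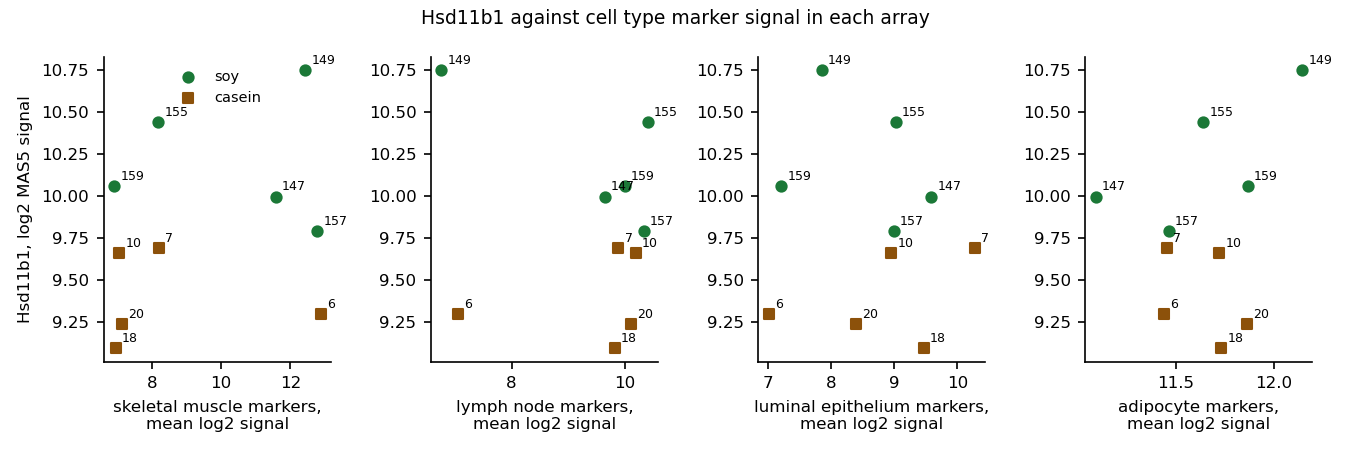
Log2 MAS5 signal of Hsd11b1 (vertical axis) against the mean log2 signal of the tested markers of 4 cell types (horizontal axes) in soy arrays (circles) and casein arrays (squares), with array numbers. Hsd11b1 was picked for its difference and its groups do not overlap, so the soy arrays lie above the casein arrays whatever the marker. Casein 6 is the only casein array at high muscle signal. Soy 149 joins the highest Hsd11b1 (10.75) with the highest adipocyte mean (12.14) and the lowest lymph node mean (6.76).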

How the data were processed

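The authors deposited linear intensity values (MAS5 signal, per the submitters' processing notes) from biotin-labelled cRNA on 1-colour arrays, per the labels' protocols. Software settings were not given in the sources used here. The 2% trimmed mean was 500.1 on every array, so that scaling was kept. The floor was 1 before taking log2. Probe sets were named from the platform annotation where it gave 1 gene symbol, and the 57 controls were left out. Tests covered the 9520 of 15866 probe sets whose mean log2 value reached the 40th percentile, 7.47. That kept 6 of the 9 member probe sets, 1 for each gene, and the other 3 are given as values.

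Diets were compared with limma 3.58.1 under R 4.3.3 (two-sided moderated test from lmFit and trended eBayes, Benjamini-Hochberg over all tested probe sets, threshold 0.05). Differences are soy minus casein. Pairs of genes were compared by Pearson and Spearman coefficients with two-sided permutation p (100000 resamples). The brightest tested probe set stood for a gene. The steps were tested on simulated data. The members, lists and tests were chosen with earlier results of these data known. Genes named are the members, the 4 of each list with the smallest p, 15 fixed targets and the genes most alike each member. Zbtb16 was not analysed here. The number of arrays limits the precision. Alternatives covered normalization, filter, offset, variance model, array weights, marker and actin covariates and left-out arrays.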

Additional observations from a re-analysis of the deposited data

Results flagged for a closer look

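Fkbp5 in soy 147 stood apart from the other soy arrays. Its log2 signal was 8.03, against 8.69 to 8.82 in the other 4 soy arrays, and the gap to the nearest of them was 0.83 of the whole range of the group. The same array had the highest Sgk1 signal of all 10 arrays, 10.44, and the lowest adipocyte marker mean of all 10, 11.09, and the part of either in the Fkbp5 value was not tested. Of 18 groups of values examined in this way (9 probe sets in both diets), 1 was singled out, and chance singles out about 1 in 20.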

How the results depend on the processing

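No paired analysis was possible because soy and casein arrays share no replicate number. Of 129 recomputed differences of the members other than Hsd11b1, 127 kept their sign and did not pass, and 2 turned, both for Tsc22d3, at -0.041 without soy 149 and -0.034 without casein 6 and soy 149. Fkbp5 lay below the filter at the 60th percentile and has no value there. The setting without casein 6 and soy 149, the values without 1 array for the correlations, and all alternatives for the median of the induced genes were chosen after seeing the data. The 26 recomputed Hsd11b1 differences, which have no test, kept their sign, and without 1 array they ran from 0.68 to 0.92. Leaving out arrays could not turn that sign, because the Hsd11b1 groups do not overlap. The count of probe sets with an adjusted p under 0.05 was 0 in every setting.

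Genes of the 4 lists that were higher in soy at an unadjusted p under 0.05 numbered 4 of 64 without Hsd11b1, which is not counted, against 2.31% of all tested probe sets. Without the 6 members 2 were higher and 2 lower of 59, or 6.78%, against 4.55%. The count of 4 was 2 under quantile normalization, median centring and the filter at the 60th percentile. In these settings 2.2%, 1.72% and 2% of all tested probe sets were higher at that p. The count was 1 without casein 6 and soy 149 (3.06% of all tested probe sets) and 13 with the muscle and lymph node covariates (3.36%). It ran from 2 to 6 without 1 array, with the 2 without soy 149 (2.9%) and the 6 without casein 7 (1.92%). Lower genes numbered 2, against 2.24%. They numbered 4 with the luminal covariate (2.72% of all tested probe sets lower) and without casein 6 and soy 149 (4.15%). Without the 4 arrays of highest muscle signal they numbered 5 (4.93%). Without 1 array they ran from 1 to 6, with 6 without casein 6 (4.07%). They numbered 1 without soy 149, soy 157, soy 159, casein 18 or casein 20 (1.45% to 2.96% of all tested probe sets). The cause was not tested.

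Of the recomputed correlations 177 kept their sign and 18 changed it. Without the 2 farthest arrays r turned to -0.016 for Hsd11b1 and Nr3c1, -0.11 for Hsd11b1 and Tsc22d3, -0.15 for Fkbp5 and Sgk1, -0.23 for Tsc22d3 and Sgk1, -0.11 for Tsc22d3 and Klf9 and -0.19 for Sgk1 and Klf9. Within diets it turned to -0.16 for Fkbp5 and Sgk1, -0.086 for Fkbp5 and Klf9 and -0.25 for Sgk1 and Klf9. With the mean of the probe sets of a gene it turned to -0.19, -0.20 and -0.061 for Nr3c1 with Hsd11b1, Fkbp5 and Klf9. Without 1 array r ran from -0.097 to 0.58 for Hsd11b1 and Tsc22d3, from -0.21 to 0.69 for Tsc22d3 and Sgk1 and from -0.12 to 0.14 for Nr3c1 and Sgk1.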
